A study of Mus musculus with 35 samples.

Results

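Albumin-Cre deletion of the transcription factor gene E2f8 was compared with wild type in whole mouse liver at 2 months of age. The comparison set 4 arrays from Albumin-Cre E2f8 loxp/loxp mice (here E2f8-null) against 3 arrays from animals labelled as wild-type controls (replicates 1 to 3), 7 of the 35 arrays of the series. All 7 came from the FVB background and from 1 normalization run. The other 2 wild-type arrays of that age, replicates 4 and 5, were normalized in another run and were left out of the wild-type mean. Each array gave a log2 signal for whole-liver RNA, and a difference of 1 on this scale is a 2-fold change. Albumin-Cre is known to act in hepatocytes, and which other cells of these livers kept E2f8 was not measured. The labels do not say whether the wild-type animals carried Cre or the floxed allele, give no sex, and do not say that each array was a separate animal. The p-values therefore measure a spread between arrays, pooled within the groups of all 35 arrays, which may in part be technical. Other FVB liver groups entered for comparison: E2f8-null (4 arrays) and wild type (3 arrays) at 3 weeks, and Albumin-Cre E2f7 loxp/loxp (E2f7-null, 4 arrays) and Albumin-Cre E2f7 loxp/loxp E2f8 loxp/loxp (double-null, 4 arrays) at 2 months.

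E2F8 and its close relative E2F7 are the atypical members of the E2F family. Each carries a pair of DNA-binding domains, binds DNA without the DP partner that E2F1 to E2F6 need, and represses genes of DNA replication and cell division late in the cell cycle. In liver both are known for their part in the polyploidization of hepatocytes, the rise in genome copies that follows weaning. E2F factors bind a GC-rich core sequence in the promoters of their target genes, E2f8 among them.

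The promoter of E2f8 itself is shown because E2f8 is the targeted gene and its signal differed between the groups. Those of Pcsk6 and Ccne1 are shown because both genes fell and lie on the same chromosome as E2f8. The sequences come from RefSeq (build GRCm38.p6) and run from 250 bases before to 50 bases after the annotated start, 5′ to 3′ on the gene's own strand. The capitals mark an E2F core motif. The E2f8 stretch is chr7:48881547-48881846 on the minus strand, the Pcsk6 stretch is chr7:65861886-65862185 on the plus strand, and the Ccne1 stretch is chr7:38107441-38107740 on the minus strand.
E2f8: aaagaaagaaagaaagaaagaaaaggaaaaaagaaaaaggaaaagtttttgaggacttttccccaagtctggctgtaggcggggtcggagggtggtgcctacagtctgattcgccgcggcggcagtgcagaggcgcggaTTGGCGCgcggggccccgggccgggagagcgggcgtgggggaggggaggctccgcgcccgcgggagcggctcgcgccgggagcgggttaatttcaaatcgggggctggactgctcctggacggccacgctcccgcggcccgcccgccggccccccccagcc
Pcsk6: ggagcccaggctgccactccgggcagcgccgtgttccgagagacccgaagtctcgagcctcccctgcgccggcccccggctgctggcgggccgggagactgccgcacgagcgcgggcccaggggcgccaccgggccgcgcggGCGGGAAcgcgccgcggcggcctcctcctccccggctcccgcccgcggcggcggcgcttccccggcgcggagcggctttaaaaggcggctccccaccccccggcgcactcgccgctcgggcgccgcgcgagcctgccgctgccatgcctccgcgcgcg
Ccne1: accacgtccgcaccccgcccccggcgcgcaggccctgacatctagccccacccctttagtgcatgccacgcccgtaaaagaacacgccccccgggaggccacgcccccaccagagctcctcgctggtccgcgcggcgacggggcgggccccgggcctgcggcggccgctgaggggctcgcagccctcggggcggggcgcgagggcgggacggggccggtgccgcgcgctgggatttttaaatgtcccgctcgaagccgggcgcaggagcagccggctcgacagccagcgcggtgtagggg
The core was searched on both strands in 4 spellings. The first was TTCCCGC. The second was TTGGCGC. The other two were TTCGCGC beside TTGCCGC. Matches on opposite strands can overlap, and a promoter was counted once however many it held. E2f8 held 1 match, at base 140 of the stretch, Pcsk6 held 1 match, at base 143 and on the opposite strand, and Ccne1 held none. Among all tested genes with a promoter in the table, 2311 of 14452 (16.0%) held a match. Among the genes that rose (defined below by the test) 4 of 30 with a promoter did (Als2cl, Atp7b, Cyp46a1 and E2f8), and among those that fell 1 of 18 did (Pcsk6). The fixed list of DNA replication genes held a match in 28 of 44 promoters. A match describes the letters of this window and not binding by a factor.

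Wild-type arrays 1 and 2 stood apart from the third on acute-phase genes, which hepatocytes switch on in inflammation. Over 26 such genes the mean log2 signal was 12.50 and 12.47 on wild-type arrays 1 and 2, 11.45 on array 3, and 11.37 to 11.42 on the E2f8-null arrays. The mean over 24 genes of hepatocyte identity was 13.12 to 13.17 in wild type and 13.04 to 13.18 in E2f8-null liver. Markers of pancreas (9 genes), muscle and adipose tissue (11 genes) and bile duct cells (7 genes) had median differences of 0.04, 0.00 and 0.09. The 3′ minus 5′ signal of Gapdh, a measure of RNA integrity, was 1.62 to 1.87 in wild type and 1.72 to 1.84 in E2f8-null liver (two-sided exact permutation p = 0.686, where 35 splits allow no p below 0.0286).

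In E2f8-null liver 64 of 18193 genes (0.352%) changed at a Benjamini-Hochberg adjusted p below 0.05 in limma. Of these, 38 rose (0.209%) and 26 fell (0.143%), and 16 changed by at least 2-fold. At an unadjusted p below 0.05 there were 1336 genes (7.34%). All 64 had E2f8-null and wild-type arrays that did not overlap, as did 869 of all genes with every E2f8-null array higher (4.78%) and 818 with every E2f8-null array lower (4.5%). The largest rises were those of Acot3, E2f8, Acnat2 and Osbpl3, and the largest falls those of Saa2, B4galnt1, Gm2788 and Orm2. The calls rested on few arrays. Leaving out E2f8-null arrays 1 to 4 in turn left 21, 23, 50 and 15 of the 64 called, and leaving out wild-type arrays 1 to 3 left 12, 7 and 49. Acnat2, Gm2788, Osbpl3, Trhde, Ttpa and Yae1d1 stayed called in all 7 of these fits. With wild-type arrays 1 and 2 left out together, array 3 alone stood for wild type, so only sizes are read from that fit. All 64 genes kept their sign there, which non-overlapping arrays fix in advance. Of the 64, 10 kept less than 50% of their difference.

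The targeted gene was higher, not lower, on the arrays labelled E2f8-null. The log2 signal of E2f8 was 9.65, 10.01, 10.56 and 10.30 on the 4 E2f8-null arrays and 7.75, 7.44 and 8.58 on the 3 wild-type arrays. The groups did not overlap, and the lowest null array lay above the highest wild-type array. The difference was 2.20 ± 0.35 (SE), a 4.61-fold rise (limma adjusted p = 0.00178). Without wild-type array 2 the adjusted p was 0.0572. A second E2f8 probe set read 6.34, 6.50, 5.97 and 6.33 in E2f8-null and 5.21, 5.33 and 5.54 in wild-type liver. These arrays did not overlap either, and the difference of 0.93 ± 0.29 did not pass the test over all probe sets, of which 46 of 45037 (0.102%) did (limma adjusted p = 0.368). The sources used here do not give where the probes lie relative to the deleted exons, and a probe outside the deletion does not check it.

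The gene next to E2f8 gave the opposite reading. Gm2788 is a predicted gene at chr7:48881300-48886608 (GRCm38.p6) whose span overlaps that of E2f8 (chr7:48866429-48882073) by 774 bases. Its log2 signal was 6.66, 6.50, 6.32 and 6.65 in E2f8-null and 10.18, 9.18 and 10.21 in wild-type liver. The gap between the groups was wider than the spread within either, at -3.32 ± 0.43, the largest fall of the 6 genes called in every fit that left out 1 array (limma adjusted p = 0.000126). Across the 4 other groups, Gm2788 was low in both that were labelled as lacking E2f8 and high in both that were not. Its mean was 5.71 ± 0.21 (SD, n = 4) in E2f8-null and 9.45 ± 0.40 (n = 3) in wild-type liver at 3 weeks, and 6.47 ± 0.19 (n = 4) in double-null and 9.25 ± 0.33 (n = 4) in E2f7-null liver at 2 months. E2f8 itself read 8.75 to 9.29 against 6.45 to 7.79 at 3 weeks, and 8.07 to 10.10 against 7.13 to 7.79 in double-null against E2f7-null liver. The single probe set of E2f7 differed by -0.24 ± 0.15 (limma adjusted p = 0.877).

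**Figure D1:**
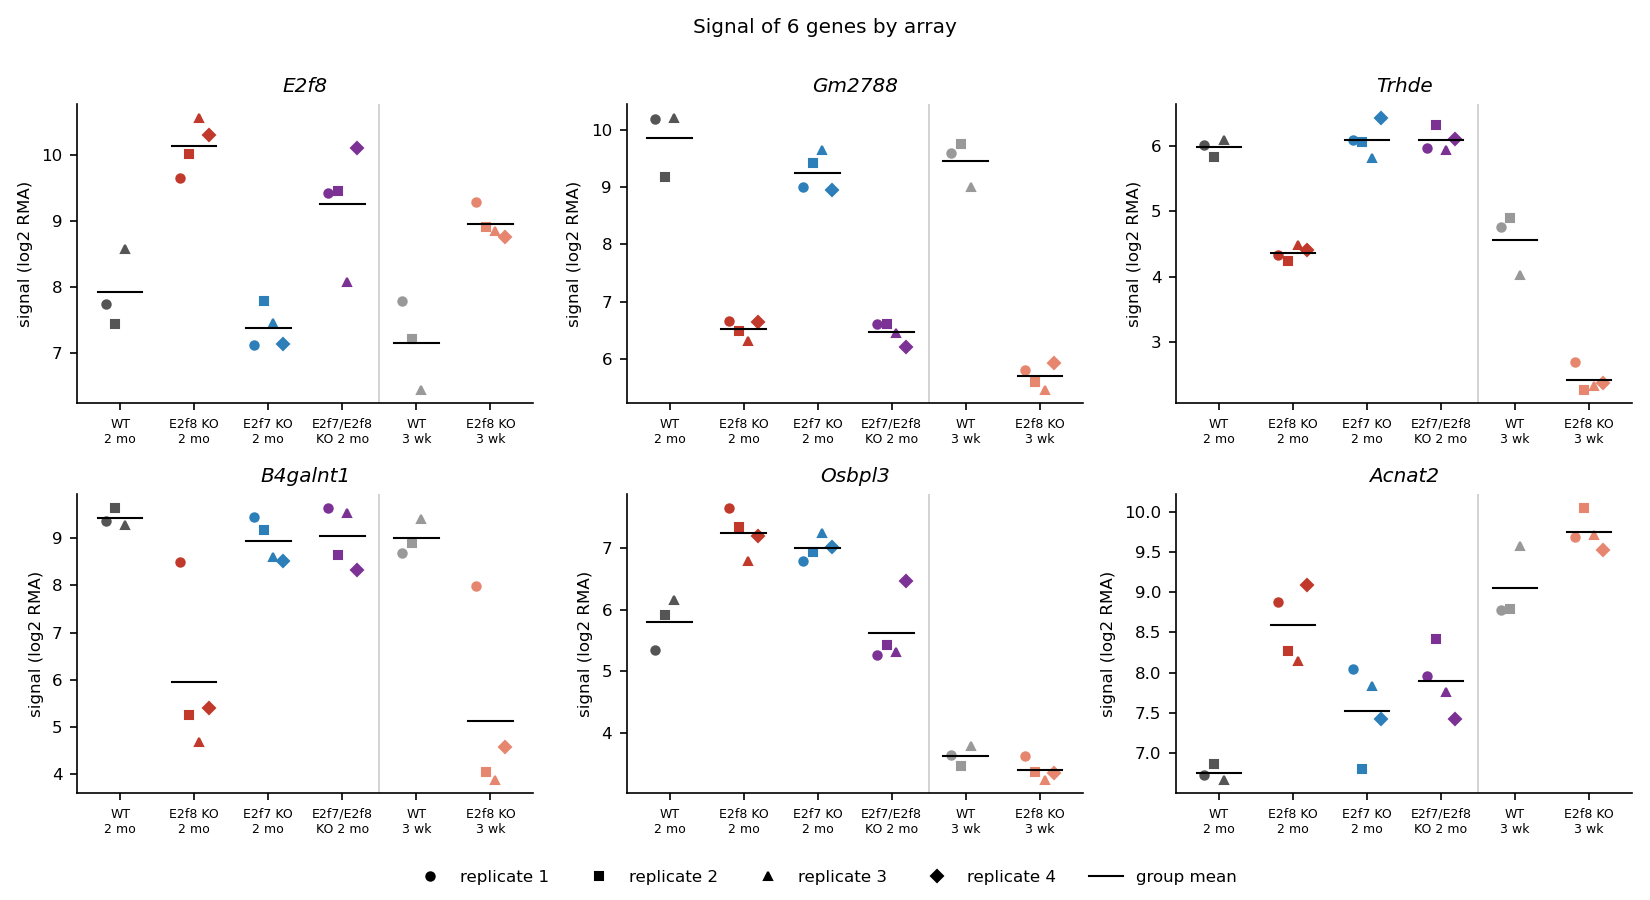
Log2 signal (vertical axis) of E2f8, Gm2788, Trhde, B4galnt1, Osbpl3 and Acnat2 on each array of 6 groups (horizontal axis); each point is 1 array, its shape gives the replicate number, and each bar is a group mean. E2f8 was high and Gm2788 low in the 3 groups labelled as lacking E2f8, Trhde and B4galnt1 were low in E2f8-null liver at both ages but not in double-null liver, and Osbpl3 was high at 2 months in E2f8-null and E2f7-null liver.

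Trhde, which encodes an ectoenzyme that degrades thyrotropin-releasing hormone, fell on all 4 E2f8-null arrays by a similar amount. Its log2 signal was 4.33, 4.24, 4.49 and 4.40 in E2f8-null and 6.01, 5.83 and 6.08 in wild-type liver. The arrays of each group lay close together and far from those of the other, and the difference was -1.61 ± 0.21, a 3.05-fold fall (limma adjusted p = 0.000126). At 3 weeks the fall was -2.14 (adjusted p = 4.5e-07), from 4.02 to 4.90 in wild type to 2.27 to 2.70 in E2f8-null liver. In double-null liver Trhde did not differ from E2f7-null liver by more than the spread (-0.01), and both groups had the wild-type level, with means of 6.08 and 6.10. The 2 wild-type arrays of the other run read 3.02 and 4.50, the first below the E2f8-null range and the second just past its upper end.

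B4galnt1, an enzyme of ganglioside synthesis, fell on 3 of the 4 E2f8-null arrays far more than on the first. Its log2 signal was 8.50, 5.26, 4.68 and 5.40 in E2f8-null and 9.37, 9.64 and 9.28 in wild-type liver. The groups did not overlap, but null array 1 lay closer to the wild-type arrays than to its own group. The difference was -3.47 ± 0.66, an 11.1-fold fall (limma adjusted p = 0.0143), and it lost its call in 4 of the 7 fits that left out 1 array (adjusted p up to 0.128). At 3 weeks the same layout recurred, with 7.99, 4.05, 3.88 and 4.58 in E2f8-null and 8.68, 8.91 and 9.41 in wild-type liver (difference -3.88, adjusted p = 0.00207). In double-null against E2f7-null liver the difference was 0.09. A second, dimmer B4galnt1 probe set had means of 5.14 in E2f8-null and 5.36 in wild-type liver at 2 months. It differed in the same direction at both ages, by -0.22 and by -0.37 at 3 weeks, and passed at neither (adjusted p = 0.989 and 0.117 over all probe sets).

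Of the 64 genes, 13 were also called in E2f8-null against wild-type liver at 3 weeks, a comparison that shares no array with this one and in which 347 genes (1.91%) were called. These were E2f8, Gm2788, Trhde, B4galnt1, Pcsk6, 0610005C13Rik, Rassf3, Adamdec1, Eif4ebp1, Yae1d1, Gm38396 and Zfp994 with the same sign, and Plscr2 with the opposite sign. Both tests use the same pooled spread of each gene, so their calls are not independent. With the compared arrays alone, 23 genes were called at 3 weeks. Pcsk6, a proprotein convertase of the extracellular matrix, read 8.76, 8.71, 8.24 and 8.73 in E2f8-null and 9.37, 9.25 and 9.73 in wild-type liver. No E2f8-null array reached the wild-type range, and the difference was -0.84 ± 0.18 (limma adjusted p = 0.0303), against -1.25 at 3 weeks (adjusted p = 0.000335). The call at 2 months was lost in each of the 7 fits that left out 1 array. Yae1d1, an adaptor for cytosolic iron-sulfur protein assembly, rose by 0.68 ± 0.10 (8.16 to 8.56 against 7.62 to 7.84, limma adjusted p = 0.000848), and by 0.57 at 3 weeks (adjusted p = 0.0022). Rassf3, a gene of the RAS-association domain family, differed by -0.72 ± 0.16 at 2 months and -0.84 at 3 weeks (adjusted p = 0.0328 and 0.00445). Eif4ebp1, a repressor of cap-dependent translation, differed by -0.38 and -0.34 (adjusted p = 0.0378 at 3 weeks).

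Several of these genes lie on chromosomes 7 and 10, which carry E2f8 and E2f7. Of the 12 genes called at both ages with the same sign, 4 were on chromosome 7 (E2f8, Gm2788, Pcsk6 and 0610005C13Rik) and 3 on chromosome 10 (Trhde, Rassf3 and B4galnt1). Within 20 Mb of E2f8, 7 of 373 genes (1.88%) were called at 2 months, against 8 of 1420 (0.563%) on chromosome 7 as a whole and 0.352% of all genes. At 3 weeks 14 of 373 (3.75%) were called there, against 32 of 1420 (2.25%) on chromosome 7 and 1.91% of all genes. The 7 were E2f8 and Gm2788, then Saa2, Saa1 and 0610005C13Rik at -2.11, -2.13 and -3.30 Mb, Ccne1 at -10.8 Mb and Pcsk6 at 17.0 Mb. Saa1 and Saa2 belong to the acute-phase genes on which wild-type arrays 1 and 2 stood apart. Within 20 Mb of E2f7, 3 of 254 genes (1.18%) were called, at 3.65 Mb (Trhde), 10.7 Mb (Rassf3) and 16.4 Mb (B4galnt1) from its start, against 3 of 865 (0.347%) on chromosome 10. At 3 weeks 7 of 254 (2.76%) were called there, against 25 of 865 (2.89%) on chromosome 10. The 20 Mb window was chosen after these positions were seen, and whether position itself bears on these calls was not tested.

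**Figure D2:**
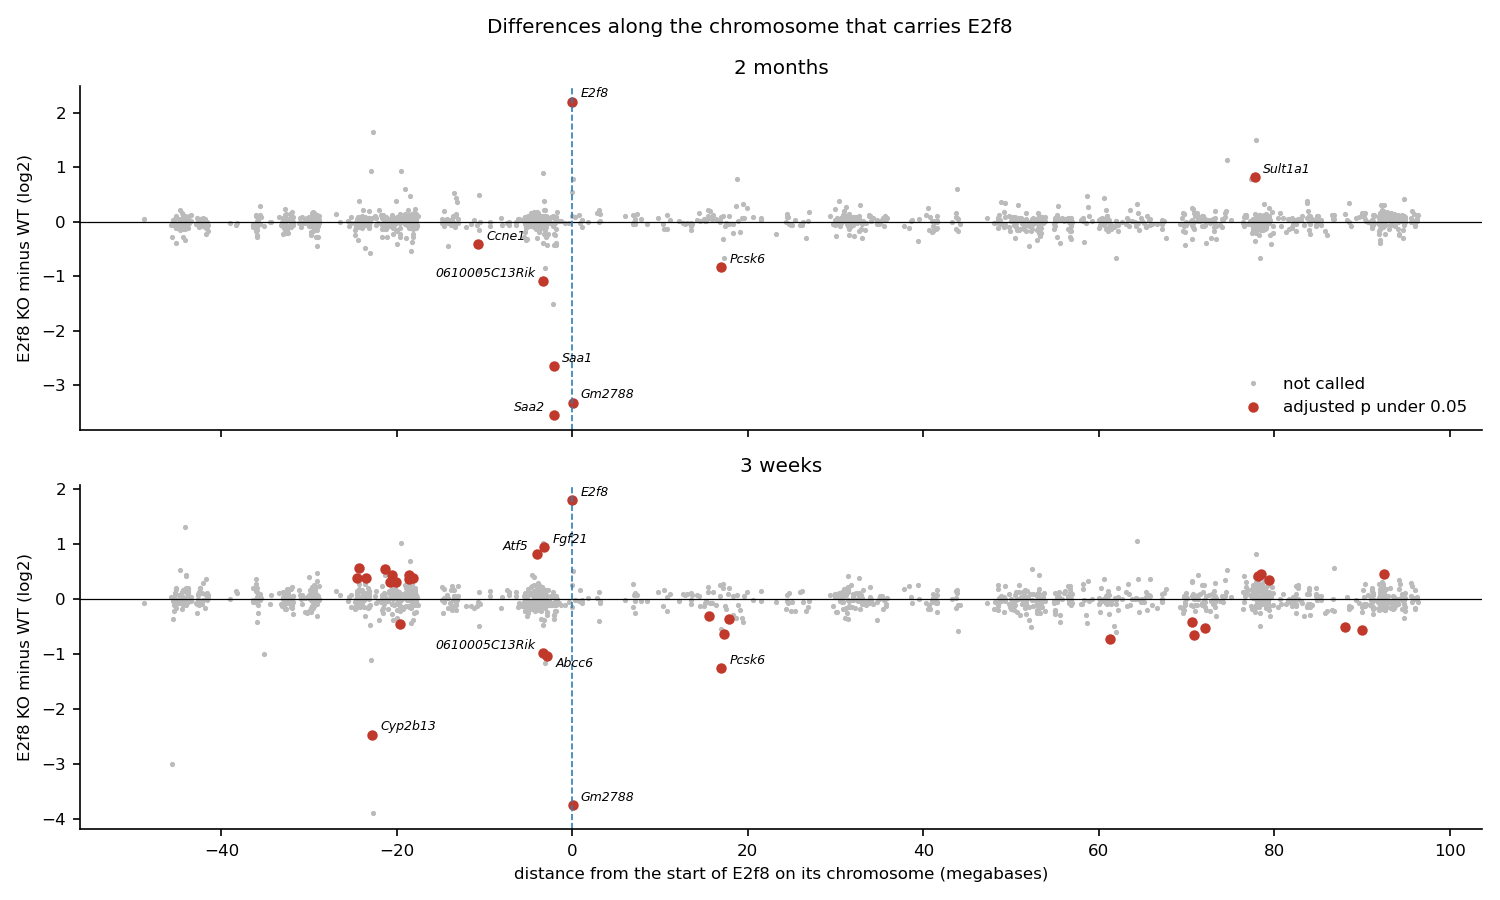
Difference in log2 signal, E2f8-null minus wild type (vertical axis), for genes of chromosome 7 against the distance of their start from that of E2f8 in megabases (horizontal axis), at 2 months and at 3 weeks; each point is 1 gene and red points passed the test. At 2 months 7 of the 8 called genes lay within 20 Mb of E2f8, and Sult1a1 lay 77.8 Mb away.

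Acot3 and Acnat2, which both act on acyl-CoA esters, rose more than any other called gene but E2f8. Acot3, a peroxisomal acyl-CoA thioesterase, read 9.29, 8.52, 7.21 and 9.58 in E2f8-null and 6.07, 6.21 and 6.75 in wild-type liver. Null array 3 lay much closer to wild type than the other 3, and the difference was 2.31 ± 0.51, a 4.94-fold rise (limma adjusted p = 0.0332). Acnat2, which transfers fatty acyl groups to amino acids, read 8.88, 8.27, 8.15 and 9.09 against 6.73, 6.87 and 6.67. Here all 4 null arrays lay more than 1 log2 unit above every wild-type array, and the rise of 1.84 ± 0.30 (3.58-fold, limma adjusted p = 0.00198) stayed called whichever array was left out. Acot2, the mitochondrial relative of Acot3, rose by 0.75 ± 0.17 (adjusted p = 0.0404), and Acot13 by 0.47. The paralog Acot1 differed by 1.60 and did not pass (adjusted p = 0.068). Acot1, Acot2 and Acot3 are close relatives in a gene cluster, and probes may read more than 1 of them. Acot3, Acot2 and Acot13 each lost their call in 5 of the 7 fits that left out 1 array, with adjusted p up to 0.211, 0.374 and 0.365. With wild-type arrays 1 and 2 left out, the rises of Acot2 and Acot13 were 0.42 and 0.23.

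Several cytochrome P450, steroid-metabolizing and conjugating enzymes also rose. Cyp2c54 read 12.62, 12.37, 12.25 and 12.46 in E2f8-null and 11.02, 10.49 and 11.99 in wild-type liver. The third wild-type array lay nearest the null arrays, and the rise of 1.26 ± 0.22 (2.39-fold, limma adjusted p = 0.00685) shrank to 0.43 without wild-type arrays 1 and 2. Cyp2c38 rose by 1.37 ± 0.30 (8.87 to 10.23 against 8.05 to 8.78, adjusted p = 0.0303) and Cyp2c50 by 0.77 ± 0.18 (adjusted p = 0.0447). These 3 Cyp2c genes are close relatives whose probes may share targets. Cyp46a1, the cholesterol 24-hydroxylase, read 7.99, 7.79, 7.65 and 7.76 against 6.75, 6.54 and 7.26, and rose by 0.95 ± 0.18 (limma adjusted p = 0.0143). Akr1d1, the 5-beta reductase of bile acid synthesis, rose by 0.81 ± 0.17 (adjusted p = 0.0303). Gstk1, a glutathione transferase of mitochondria and peroxisomes, rose by 0.87 ± 0.18 (12.15 to 12.23 against 10.90 to 11.63, adjusted p = 0.0213). Sult1a1, a phenol sulfotransferase, rose by 0.83 ± 0.17 (adjusted p = 0.0208), and Nqo2, a quinone reductase, by 0.61. Without wild-type arrays 1 and 2 the rises of Cyp2c50, Sult1a1 and Nqo2 were 0.32, 0.39 and 0.29, and those of Cyp2c38, Cyp46a1 and Gstk1 were 0.90, 0.53 and 0.55.

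Over the list of 31 genes of xenobiotic metabolism, 26 were higher and 5 lower, with a median difference of 0.17 beside 0.01 over all genes. Of these, 3 were called, all higher. The list's mean signal was 10.07, 9.97, 9.80 and 10.06 on the E2f8-null arrays and 9.58, 9.53 and 9.78 on the wild-type arrays, so the groups were barely apart. Without wild-type arrays 1 and 2 the median was 0.12, with 19 higher and 12 lower. It was 0.013 without the term for the normalization run, and -0.18 at 3 weeks. The E2f7-null arrays at 2 months had list means of 9.805 to 9.925, also above wild-type arrays 1 to 3. The 26 targets of PPAR-alpha, the nuclear receptor of fatty acid oxidation, had a median of 0.12 (21 higher, 5 lower, Acot2 and Acot3 called). That median was 0.00 without wild-type arrays 1 and 2 and -0.03 without the term for the normalization run.

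Osbpl3 and Ttpa, both lipid-binding proteins, were among the 6 genes called whichever array was left out. Osbpl3, an oxysterol-binding protein relative, read 7.66, 7.35, 6.80 and 7.20 in E2f8-null and 5.35, 5.91 and 6.16 in wild-type liver. The groups did not overlap, and the rise was 1.45 ± 0.23 (2.72-fold, limma adjusted p = 0.00178). Ttpa, the hepatic alpha-tocopherol transfer protein, read 13.01, 12.89, 12.98 and 13.12 against 12.36, 12.54 and 12.54, a smaller but even rise of 0.52 ± 0.08 (limma adjusted p = 0.00178). Slc45a3, a sugar transporter relative, rose by 1.32 ± 0.28 (9.35 to 9.53 against 7.95 to 8.23, adjusted p = 0.0303). Slc47a1, an organic cation exporter, rose by 0.52 ± 0.10 (adjusted p = 0.0174), and Atp7b, the copper exporter mutated in Wilson disease, by 0.46. Chdh, the choline dehydrogenase of betaine synthesis, rose by 0.37 ± 0.08 (adjusted p = 0.0258). Maob and Bche, which encode monoamine oxidase B and butyrylcholinesterase, rose by 0.54 and 0.58. Dapk1, a death-associated protein kinase, rose by 0.68 ± 0.12 (adjusted p = 0.00685), and Olfm3, Lratd2, Rcan2 and Dop1b rose by 1.03, 1.02, 1.00 and 0.97. Leaving out wild-type arrays 1 and 2 gave 0.64 for Lratd2 and 0.59 for Rcan2.

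All 22 measured genes of fatty acid synthesis, the targets of SREBP1c and ChREBP, lay higher in E2f8-null liver, but none passed the test. Their differences ran from 0.02 to 1.41 with a median of 0.51, beside 0.01 over all genes, of which 53.1% were higher. The list's mean signal was 11.32, 11.47, 11.13 and 11.65 in E2f8-null and 10.98, 10.77 and 10.93 in wild-type liver. Every null array lay above every wild-type array, and 10 of the 22 genes had arrays that did not overlap (4.78% of all genes did so in that direction). The same number had an unadjusted p below 0.05 (3.77% of all genes did so in that direction). Pklr, the liver pyruvate kinase, differed by 0.92 (limma adjusted p = 0.231), Elovl5, a fatty acid elongase, by 0.51 (adjusted p = 0.178), and Pnpla3, a lipid droplet acyl hydrolase, by 1.41 (adjusted p = 0.546). Without wild-type arrays 1 and 2 the median was 0.31 with all 22 still higher. At 3 weeks the median was 0.12, and in double-null against E2f7-null liver it was -0.33. The E2f7-null arrays at 2 months had list means of 11.42, 11.16, 10.9 and 11.52, and the median of E2f8-null minus E2f7-null was 0.05. The rise over wild type was therefore not particular to E2f8-null liver.

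Saa2, Orm2 and Saa1, all acute-phase genes, were among the 5 largest falls and followed the wild-type arrays that stood apart. Saa2, a serum amyloid A, read 7.84, 8.42, 8.69 and 7.99 in E2f8-null and 13.28, 13.33 and 8.72 in wild-type liver. Orm2, an orosomucoid, read 5.95, 5.98, 5.75 and 6.01 against 11.28, 9.82 and 6.50. For both genes wild-type array 3 lay next to the null arrays while arrays 1 and 2 were several log2 units higher. The fitted differences were -3.55 ± 0.78 for Saa2, -3.28 ± 0.59 for Orm2 and -2.65 ± 0.54 for Saa1 (limma adjusted p = 0.0332, 0.00746 and 0.0244). Without wild-type arrays 1 and 2 they were -0.49, -0.58 and -0.57. Saa1 and Saa2 are near-identical copies whose probes may read each other. Of the 26 acute-phase genes 22 were lower, 3 of them called, with a median of -0.31. Without both arrays the median was 0.02 (10 lower, 16 higher), and at 3 weeks it was 0.01. Lcn2, the siderophore-binding lipocalin 2, differed by -3.31 and did not pass (adjusted p = 0.0581), and its difference was 0.13 without those arrays.

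Macrophage genes were lower as a group, and wild-type arrays 1 and 2 were the highest on this list too. All 18 markers of macrophages and Kupffer cells, the resident macrophages of liver, lay lower in E2f8-null liver, with differences from -1.01 to -0.23 and a median of -0.64. Of these, 2 fell past the test, and 16 had an unadjusted p below 0.05 (651 of all 18193 genes did so in that direction, 3.58%). For 14 the arrays did not overlap (818 of all genes in that direction, 4.5%). The list's mean signal was 8.19, 8.36, 8.12 and 7.89 in E2f8-null and 9.01, 8.77 and 8.57 in wild-type liver, with every null array below every wild-type array. In whole-liver RNA, fewer macrophages and less RNA per macrophage cannot be told apart. Without wild-type arrays 1 and 2 the median was -0.46 with 17 of 18 lower.

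Cd5l, a macrophage-secreted inhibitor of apoptosis, read 9.89, 10.07, 9.72 and 9.40 in E2f8-null and 10.99, 10.80 and 10.33 in wild-type liver. C1qb, a chain of complement C1q, read 8.71, 8.78, 8.09 and 8.04 against 9.38, 9.29 and 9.06. Null arrays 3 and 4 were the lowest for both genes, and the falls were -0.94 ± 0.20 and -0.84 ± 0.19 (limma adjusted p = 0.0303 and 0.0332), lost in 5 and 4 of the 7 fits without 1 array. With wild-type arrays 1 and 2 left out they were -0.56 and -0.66. Csf1r, the receptor on which macrophages depend, differed by -0.60 (adjusted p = 0.0581), Clec4f, a Kupffer cell lectin, by -0.67 (adjusted p = 0.221), and Ctss, cathepsin S, by -0.81 (adjusted p = 0.0803). Outside the list, Wfdc17 and Adamdec1, both known from macrophages, fell by 0.87 and 0.82 on the log2 scale. Nckap1l, an actin regulator of blood cells, and the amino acid transporter gene Slc7a7 differed by -0.58 and -0.55 (adjusted p = 0.00746 for Slc7a7). At 3 weeks the macrophage list had a median of -0.47, with mean signals of 6.97 to 7.71 in E2f8-null and 7.54 to 8.12 in wild-type liver, so that these groups overlapped. In double-null against E2f7-null liver the median was 0.01. The E2f7-null arrays at 2 months had list means of 8.21 to 8.56, also below wild-type arrays 1 to 3 and overlapping the E2f8-null arrays. The median of E2f8-null minus E2f7-null was -0.26.

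Markers of other non-parenchymal cells also lay lower, with none called. Of 18 stellate cell and fibroblast genes 16 were lower (median -0.32), and of 21 sinusoidal endothelial genes 18 were lower (median -0.18). Without wild-type arrays 1 and 2 the endothelial median was -0.40 with all 21 lower, and it was -0.30 without array 2 and -0.035 without array 3. At an unadjusted p below 0.05 there were 6 and 4 genes of the lists, all lower, beside 3.58% of all genes in that direction. The stellate list's mean signal was 7.68 to 8.10 in E2f8-null and 8.15 to 8.42 in wild-type liver, without overlap, while the endothelial list overlapped (8.00 to 8.34 against 8.16 to 8.65). The medians for T and NK cells (13 genes), B cells (9 genes), neutrophils (11 genes) and erythroid cells (11 genes) were 0.01, 0.07, -0.03 and 0.05. Their part in the macrophage result was not tested.

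**Figure D3:**
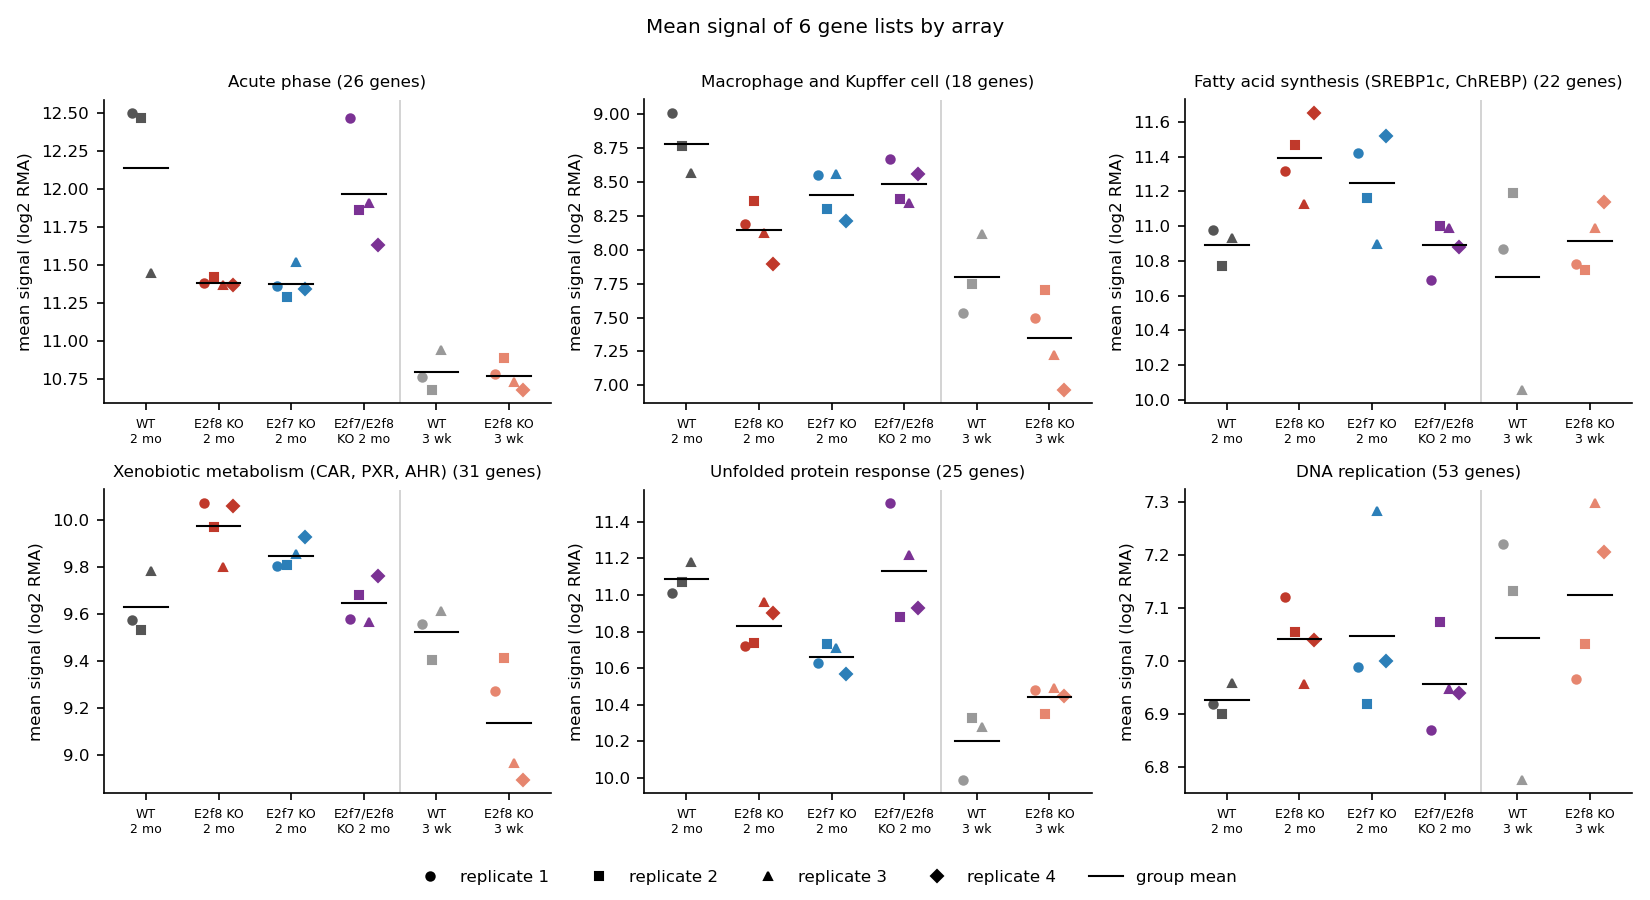
Mean log2 signal (vertical axis) over 6 gene lists on each array of 6 groups (horizontal axis); each point is 1 array and its shape gives the replicate number. Wild-type arrays 1 and 2 at 2 months stand at 12.50 and 12.47 for the acute-phase list against 11.45 for array 3, the macrophage list is at 7.89 to 8.36 in E2f8-null and 8.57 to 9.01 in wild-type liver, and the fatty acid synthesis list is at 11.13 to 11.65 against 10.77 to 10.98.

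The remaining falls held genes of varied function. Bach1, a heme-sensing repressor, read 9.17, 9.43, 9.85 and 9.49 in E2f8-null and 10.31, 10.25 and 10.31 in wild-type liver. The wild-type arrays were tightly grouped above the null arrays, and the difference was -0.80 ± 0.18 (limma adjusted p = 0.0332). Its target Hmox1, the heme oxygenase that degrades heme, differed by -0.84 and did not pass (adjusted p = 0.13). Riok2, a kinase of ribosome subunit maturation, fell by 0.79 on the log2 scale (adjusted p = 0.0208). Igfbp1, a hepatic binding protein of insulin-like growth factors, read 7.19, 7.06, 8.04 and 5.49 against 8.43, 9.91 and 9.20, and its difference of -2.23 ± 0.54 did not pass (adjusted p = 0.0606). Tmem176a read 11.67 to 11.72 in E2f8-null liver and 12.51, 12.52 and 11.74 in wild type, so its fall of 0.55 lay in wild-type arrays 1 and 2 alone.

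The cell-cycle genes that E2F8 is known to repress did not pass the test at 2 months. Of 53 measured DNA replication genes 41 were higher and 12 lower, with a median of 0.09, and of 63 mitosis and cytokinesis genes 50 were higher and 13 lower, with a median of 0.08. No gene of either list was called. At an unadjusted p below 0.05, 3 replication genes were higher, and 2 mitosis genes were higher and 1 lower. Of all genes, 3.77% were higher and 3.58% lower at that level. Without the term for the normalization run the medians were -0.03 and -0.01, so the sign of both depends on it. Dropping that term mixes in wild-type arrays of another run. Leaving out single arrays gave medians of 0.050 to 0.134 and 0.053 to 0.102. In the replication list 8 genes had every null array higher and 2 had every null array lower (4.78% and 4.5% of all genes). In the mitosis list these were 10 and 1. The replication list's mean signal was 7.12, 7.05, 6.96 and 7.04 in E2f8-null and 6.92, 6.90 and 6.96 in wild-type liver, where null array 3 met wild-type array 3. Rrm2, the small subunit of ribonucleotide reductase, read 7.71, 7.67, 7.24 and 7.46 against 6.88, 6.50 and 6.32. Spc24, a kinetochore protein, read 7.48, 7.53, 7.12 and 7.69 against 6.62, 6.60 and 6.89. For both genes every null array lay above every wild-type array, and the differences of 0.95 ± 0.28 and 0.76 did not pass (limma adjusted p = 0.161 and 0.0724). Tk1, thymidine kinase of the salvage pathway, differed by 0.37 (adjusted p = 0.423).

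Among 15 cyclins, cyclin-dependent kinases and their inhibitors, Ccne1 was called, and it was lower. Ccne1, the cyclin E1 that drives entry into S phase, read 6.87, 6.85, 6.72 and 6.79 in E2f8-null and 7.23, 7.21 and 7.21 in wild-type liver. The wild-type arrays were almost equal, and the difference was -0.41 ± 0.09 (limma adjusted p = 0.0303), lost in each of the 7 fits without 1 array. It was -0.04 at 3 weeks and 0.18 in double-null against E2f7-null liver. The list's median was -0.04. The other E2F genes measured, E2f1 to E2f6, differed by 0.01, 0.09, 0.04, 0.03, 0.02 and -0.15, and none passed (adjusted p 0.877 to 0.999). The 13 E2F partner and pocket protein genes had a median of -0.02, the 25 DNA repair genes 0.08 and the 22 p53 targets -0.02.

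Other lists moved by small amounts. Of 25 genes of the unfolded protein response 24 were lower with a median of -0.21, and none passed. At an unadjusted p below 0.05, 4 were lower (3.58% of all genes did so in that direction). Dnajb9, a chaperone of the endoplasmic reticulum, differed by -0.68 (limma adjusted p = 0.347). That list's mean signal was 10.72 to 10.96 in E2f8-null and 11.01 to 11.18 in wild-type liver, and its median at 3 weeks was 0.28. The E2f7-null arrays at 2 months also lay below wild type on this list, at 10.57 to 10.73. Of 23 genes higher in male liver 19 were lower (median -0.23), and of 18 genes higher in female liver 14 were higher (median 0.10), with Acot3 called. The labels give no sex, and its part in these values was not tested. The 26 glutathione and NRF2 genes had a median of 0.12, and 0.02 without wild-type arrays 1 and 2. The 17 ribosomal protein genes had a median of -0.07.

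The same loss was read in 2 sets of arrays that share none with these 7: at 3 weeks, and in E2f7-null liver at 2 months (double-null minus E2f7-null). The tests share the same pooled spread of each gene. At 3 weeks 38 of the 64 genes had the same sign, 21 of the 26 that fell and 17 of the 38 that rose. In E2f7-null liver, where 43 genes (0.236%) were called, 17 had the same sign and 47 the opposite. E2f8 and Gm2788 were called there in the same direction, at 1.88 and -2.78 (limma adjusted p = 0.011 and 0.00154). Osbpl3 and Tes were called in the opposite direction, at -1.38 and 0.41 (adjusted p = 0.0015 and 0.021). Across all 18193 genes, which are not independent replicates, the differences at 2 months correlated with those at 3 weeks at r = 0.208 (Spearman rho 0.0841). They correlated with those in E2f7-null liver at r = -0.304 (rho -0.216), which was 0.0162 without wild-type arrays 1 and 2.

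The change of the E2f8 difference with age was tested within the model and uses these 7 arrays as well as the 7 of 3 weeks. It was called for 78 genes (0.429%), of which 11 were among the 64, all of them rises at 2 months. For Osbpl3, whose signal at 3 weeks was 3.24 to 3.62 in E2f8-null and 3.46 to 3.79 in wild-type liver, the change was 1.68 (limma adjusted p = 0.0183). For Ttpa it was 0.59, for Akr1d1 1.18, for Acot2 1.23 and for Plscr2, a phospholipid scramblase gene, 1.21 (adjusted p = 0.0191, 0.025, 0.0191 and 0.014). Without wild-type array 2 no gene passed, with 1711 at an unadjusted p below 0.05. The 3-week arrays formed a normalization run of their own, with a mean gap in sorted signal of 0.80 to the first 2-month run. Age and run therefore cannot be told apart in this test.

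E2f8 loss was also set against loss of its relative E2f7 at the same age. Between E2f8-null and E2f7-null liver 14 genes (0.077%) were called, and 8 of them were among the 64: E2f8, Gm2788, Trhde, B4galnt1, Pcsk6, Rassf3, Lratd2 and Ttpa. Trhde differed by -1.73, Pcsk6 by -1.15, Rassf3 by -0.85 and B4galnt1 by -2.98 (limma adjusted p = 1.05e-05, 0.000597, 0.00852 and 0.0459). Ttpa differed by 0.39 and Lratd2 by 1.04 (adjusted p = 0.0249 and 0.0223). For Osbpl3 the E2f7-null arrays read 6.80, 6.94, 7.24 and 7.02, within the E2f8-null range, while the double-null arrays read 5.27, 5.43, 5.31 and 6.47, all below the lowest E2f8-null array. The change of the E2f8 difference between E2f7-null and E2f7-intact liver, which uses both these sets of arrays, was called for 199 genes (1.09%), and for Osbpl3 it was -2.83. The direct comparison shares the E2f8-null arrays with the one against wild type, so its counts are not a second reading of the same genes.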

How the data were processed

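Liver RNA was measured on 35 Affymetrix arrays, and the deposited values are log2 RMA signals for 45101 probe sets, per the submitters' processing notes and the value ranges. The sources used here do not give how the authors scaled arrays across runs. Sorted signals of the arrays fell into 3 sets with near-identical distributions (mean gap at most 0.0330 within a set and at least 0.122 between sets), taken here as normalization runs. The run of an array was therefore read from the values and not from the labels. Array number, not read depth, limits the precision.

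From these values, 64 control probe sets were dropped, as were 932 that carry more than 1 symbol and 9160 without any. Each of 18193 genes was represented by its brightest probe set, judged by the mean of the 35 arrays. Symbols followed the platform annotation, of which 34741 probe sets matched RefSeq (GRCm38.p6) by gene identifier. limma 3.58.1 (R 4.3.3) fitted 9 group means and a term for the second 2-month run over all 35 arrays, with an intensity trend (25 residual degrees of freedom), and all other steps used Python 3.11.15. P-values were adjusted by Benjamini-Hochberg over all genes, and a gene is called changed at an adjusted p below 0.05. The procedure was tested on simulated data.

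Genes named are E2f1 to E2f8, the 12 largest rises and falls among called genes with non-overlapping arrays, up to 4 members with the smallest p in each of 44 gene lists, and the 5 largest in each direction of 5 other comparisons. Gm2788, 0610005C13Rik and the called genes outside this rule were named after their values were seen. The groups, lists and rule were chosen with earlier results of these data known. Same-numbered E2f8-null and wild-type arrays did not deviate together (correlations -0.23, -0.16 and -0.00). Between E2f8-null and E2f7-null arrays they were 0.21, -0.15, 0.32 and 0.28, not all above 0.1, so replicate numbers were not used as pairs. Alternatives changed the arrays in the fit, the run term, normalization, filter on dim genes, probe set rule, variance trend, array weights, replicate block and each array in turn. Leaving out wild-type arrays 1 and 2 together was chosen after seeing the data.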

Additional observations from a re-analysis of the deposited data

Results flagged for a closer look

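Among 33 named genes that were checked array by array and between conditions, 1 array and 20 differences were singled out for a second look. Pcsk6 on E2f8-null array 3 read 8.24, while the other 3 arrays lay at 8.71 to 8.76; a rule of this kind singles out about 1 in 20 groups by chance.

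The E2f8 difference was tested for a change between 3 weeks and 2 months, and for 3 genes it was larger at 2 months. The change was 1.68 for Osbpl3, 1.45 for Cyp2c54, a cytochrome P450 of the Cyp2c family, and 1.29 for Dop1b (limma adjusted p = 0.0183, 0.0317 and 0.0304). None of these passed without wild-type array 2. Age and normalization run cannot be told apart in this test.

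The E2f8 difference was also tested for a change between E2f7-null and E2f7-intact liver at 2 months, and 17 of the genes passed. In that test 199 of 18193 genes (1.09%) were called. Of the genes that rose in E2f8-null liver, the change was -2.83 for Osbpl3, -2.23 for Cyp2c38, -1.52 for Slc45a3, -1.89 for Cyp2c54, -1.09 for Olfm3, -1.25 for Rcan2, -1.13 for Dop1b and -1.17 for Cyp46a1. Of the acute-phase genes it was 6.17 for Saa2, 5.11 for Orm2 and 4.85 for Saa1. Of the macrophage genes it was 1.07 for Wfdc17, 1.03 for C1qb and 1.10 for Adamdec1. It was 3.57 for B4galnt1, 1.60 for Trhde and 1.00 for Bach1. The test uses the 7 arrays on which these genes were chosen. It called 60 genes in all without wild-type array 1 and 64 without wild-type array 2.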

How the results depend on the processing

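The count of 64 genes in E2f8-null against wild-type liver was 98 with the compared arrays alone (61 higher, 37 lower). Only 32 of those 98 were among the 64. With the first 2-month run alone the count was 111 (61 and 50), of which 49 were among the 64. Array weights gave 252, which held all 64. Without the run term, which mixes in wild-type arrays of another run, the count was 282 (113 higher, 169 lower). Of these, 37 were among the 64, and Cyp2c50, Pnldc1 and Zfp994 turned to -0.054, -0.24 and -0.30. The 64 genes kept their sign in every other alternative run for them. Their non-overlapping arrays fix that sign in advance, except under quantile normalization, averaged probe sets and the replicate block. Quantile normalization, the filter on dim genes, averaged probe sets and no variance trend gave 73, 80, 49 and 62. Leaving out single arrays gave 7 to 100. With the replicate number as a block the count was 30, of which 29 were among the 64. This block was not a pairing the data bear out, since no correlation between same-numbered E2f8-null and wild-type arrays was above 0.

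At 3 weeks the count of 347 was 23 with the compared arrays alone, 115 without the run term and 161 with array weights, and 166 to 396 without single arrays. In E2f7-null liver the count of 43 was 19, 4 with the first run alone, 2 and 431, and 4 to 68. For the change with age the count of 78 was 23 with the compared arrays alone, 47 without the run term and 22 with the replicate block. Without single arrays it was 0 to 95. Between E2f8-null and E2f7-null liver the count of 14 was 23, 4 without the run term and 208 with array weights, and 4 to 20. For the change with loss of E2f7 the count of 199 was 582 with array weights, 1 without wild-type arrays 1 and 2, and 60 to 268. The causes of these shifts were not tested. With 3 wild-type arrays, of which 2 stood apart, small differences could not be told from the spread between arrays.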

Other observations

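The 2 wild-type arrays of the other 2-month run also differed from each other on acute-phase genes. They entered the main fit only through the pooled spread, and the wild-type mean only in the fit without the run term. Replicates 4 and 5 read 11.30 and 13.89 for Saa1, 9.30 and 13.37 for Saa2, and 7.78 and 9.42 for Orm2. E2f8 read 6.50 and 6.19 there and Gm2788 read 9.52 and 7.88. B4galnt1 read 9.11 and 9.14, and Osbpl3 read 5.02 and 4.72.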
